A study of Homo sapiens with 12 samples.

Results

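Transcript levels of 35 genes of autophagy and the lysosome were followed among 19775 genes measured in FG and L3.6pl, a pair of human pancreatic carcinoma cell lines. The genes were chosen by name, 25 for autophagy and 10 for the lysosome, and each was found by its current symbol, or by an older symbol of the same gene number, in the array's probe annotation. All 35 had at least 1 probe set that names no other gene. For the 22 genes with several such probe sets, the brightest over all arrays stood for the gene, and 13 genes had 1.

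Each line was measured on 3 arrays in normoxia and 3 in hypoxia, 12 Affymetrix arrays with 54675 probe sets in all. The 4 groups were FG in normoxia, FG in hypoxia, L3.6pl in normoxia and L3.6pl in hypoxia. Hypoxia was 1% oxygen for the final 24 h of culture, and normoxic cultures had no treatment. All groups came straight from frozen stock and grew for about 9 days in DMEM with 10% serum, and no group carried a genetic change made for the study. L3.6pl was derived by repeated passage through mice for its metastatic growth. A difference between the lines is therefore one between 2 established lines, not between classes of tumour. The labels number the arrays of a group from 1 to 3 without saying that they came from separate cultures, so p values measure only the spread between these arrays.

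Autophagy encloses cytoplasm in membrane vesicles and delivers it to the lysosome for breakdown. The ULK kinase complex starts the process, a lipid kinase complex around BECN1 marks the site, and ubiquitin-like ligation couples ATG8 proteins such as LC3 and GABARAP to the growing membrane, where cargo receptors bind them. Lysosomes then digest the content with cathepsins and glycosidases, and TFEB is a transcription factor known for driving genes of both systems. Pancreatic cancer cells are known for high basal autophagy, and low oxygen is a textbook inducer of it. Transcript levels do not measure the flow of material through the pathway.

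Values below are log2 of the deposited intensity, given for replicates 1, 2 and 3 of a group in that order. Changes are log2 differences ± standard error from 1 limma model over all 12 arrays, and a gene was called at an adjusted p below 0.05 (Benjamini-Hochberg over all 19775 genes). An exact permutation of 3 arrays against 3 could reach no p under 0.1, so the limma values carry the tests. Leaving out an array of a group not compared keeps a difference as it is. It moves only the test, through the spread that all groups share in the model. Whole cultures were lysed, so fewer expressing cells and less RNA per cell cannot be told apart.

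Arrays of a group correlated at an r of 0.974 to 0.9961 across genes. The epithelial markers EPCAM, CDH1 and the keratins KRT7, KRT8, KRT18 and KRT19 had array means of 11.52 to 11.91, and array means of 9 fibroblast and endothelial markers were 5.44 to 6.15 and of 6 blood markers 5.17 to 5.37. Of the 9, COL1A1, COL3A1 and PECAM1 averaged 9.72, 8.23 and 7.35 over all arrays, and the other 6 averaged 3.14 to 5.52. COL3A1, a fibrillar collagen, was lower in L3.6pl than in FG by limma, at -5.42 in normoxia (adjusted p = 1.1e-05) and -4.93 in hypoxia (adjusted p = 1.67e-05), and its part in the line differences below was not tested. Of 10 textbook hypoxia genes, 9 rose in each line, with array means of 8.55 to 9.37 in normoxia and 10.72 to 11.63 in hypoxia. The first array of each normoxic group (FG and L3.6pl normoxia replicate 1) and hypoxia replicate 3 of L3.6pl stood apart in earlier results of these data and had the lowest mean correlation with the other arrays of their groups. L3.6pl hypoxia replicate 3 was the highest of its group for all 10 lysosome genes and for 15 of the 25 autophagy genes, and its mean over the hypoxia genes, 11.26, was the lowest of its group. The part of these arrays in the results was not tested beyond leaving them out.

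**Figure D1:**
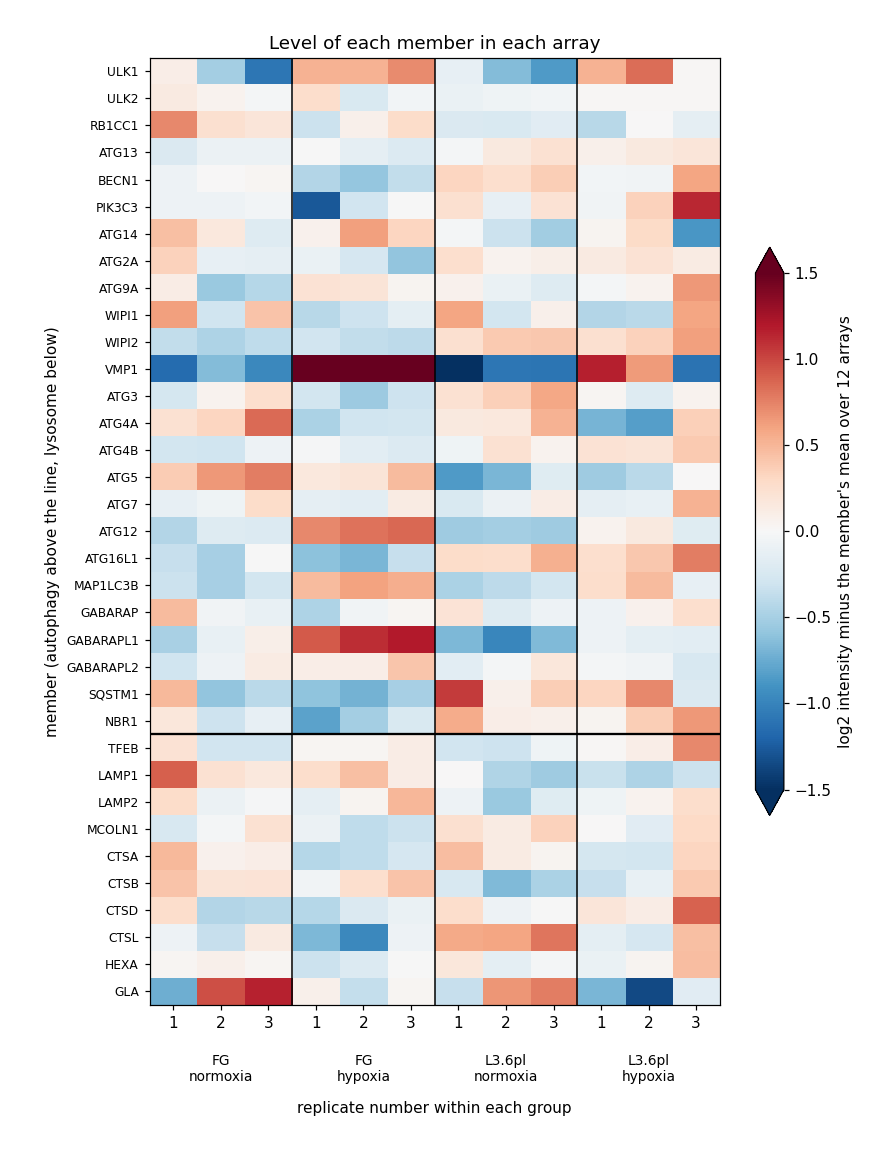
Log2 intensity of each of the 35 genes in each of the 12 arrays, as the difference from that gene's own mean over all arrays (colour, saturated beyond 1.5), with autophagy genes above the line and lysosome genes below. VMP1 was high in all 3 FG hypoxia arrays and in 2 of the 3 L3.6pl hypoxia arrays, and L3.6pl hypoxia replicate 3 has the highest value of its group for all 10 lysosome genes.

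The first question was what 24 h of low oxygen did to these transcripts in FG. Autophagy genes that were called had all risen: VMP1, GABARAPL1, ULK1, ATG12 and MAP1LC3B, by 1.88-fold to 7.25-fold. They were 5 of 25 autophagy genes, against 10.7% of all genes called in either direction, 4.24% called higher and 6.47% called lower. The other 20 autophagy genes and all 10 lysosome genes were not called. The median change was -0.09 over the 25 autophagy genes and -0.18 over the 10 lysosome genes, beside -0.03 over all genes. Below 0 lay 14 of the 25 autophagy genes, beside 10864 of the 19775 genes. At an unadjusted p below 0.05 limma gave 9 autophagy genes and 1 lysosome gene, and the share of all genes at that threshold is not given here. With array quality weights in the same fit 10 autophagy and 2 lysosome genes were called, beside 29.0% of all genes.

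In L3.6pl the same treatment gave 3 called rises, ATG12, GABARAPL1 and MAP1LC3B, and no called fall. All 3 were also called in FG. They were 3 of 25 autophagy genes, against 6.86% of all genes called in either direction, 3.89% called higher and 2.97% called lower, and none of the 10 lysosome genes was called. The median change was 0.11 over the autophagy genes and 0.04 over the lysosome genes, beside -0.02 over all genes. At an unadjusted p below 0.05 limma gave 7 autophagy and 4 lysosome genes. The share of all genes at that looser threshold is not given here, so these counts have no background to be read against. Without L3.6pl hypoxia replicate 3 limma called 7 autophagy genes, beside 12.3% of all genes, and without L3.6pl normoxia replicate 1 it called 2. Without L3.6pl hypoxia replicate 1 or 2 or L3.6pl normoxia replicate 2 or 3 it called 0. Calls over all genes moved too, from 508 to 2436 over the fits that left out 1 array.

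**Figure D2:**
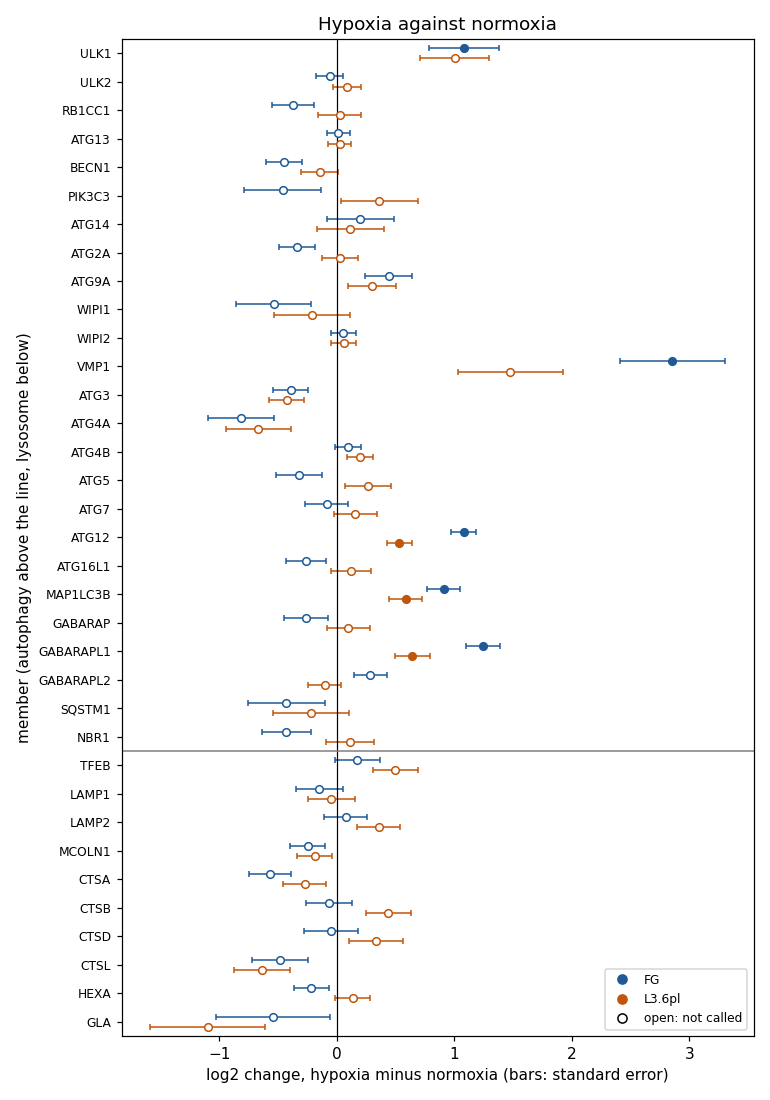
Log2 change in hypoxia against normoxia for each gene (x axis), in FG (blue) and L3.6pl (orange), with bars of 1 standard error and filled points for called changes. The 5 filled blue points and 3 filled orange points all lie to the right of 0, and no lysosome gene has a filled point.

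Among the genes that start autophagy, ULK1 responded to hypoxia. ULK1 is the protein kinase that receives nutrient and energy signals. Its levels in FG were 7.34, 6.74 and 6.16 in normoxia and 7.77, 7.77 and 7.96 in hypoxia. The groups did not overlap, although normoxia spread more widely than hypoxia. ULK1 rose in FG by 1.08 ± 0.30 (2.12-fold, adjusted p = 0.0413). In L3.6pl its levels were 7.12, 6.60 and 6.40 in normoxia and 7.78, 8.09 and 7.26 in hypoxia, again without overlap, and the difference of 1.00 ± 0.30 was not called (adjusted p = 0.0724). The ULK1 call in FG was lost without any of the 3 FG hypoxia arrays, without replicate 2 or 3 of either normoxic group, or without L3.6pl hypoxia replicate 1, with adjusted p between 0.0516 and 0.1243. The L3.6pl difference passed without L3.6pl hypoxia replicate 3, at 1.22 (adjusted p = 0.0289), without FG normoxia replicate 1 or without FG normoxia replicate 3.

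The other members of the initiation complex were not called by their brightest probe set. ULK2, a related kinase, lay between 5.14 and 5.63 in all arrays by that probe set, with changes of -0.06 in FG and 0.09 in L3.6pl. Its other 3 probe sets, dimmer ones with mean levels of 4.49 to 5.08, went against this in FG: tested singly with limma they fell, by 0.57 (adjusted p = 0.0276), 0.75 (adjusted p = 0.0438) and 0.72 (adjusted p = 0.0312). In L3.6pl they were at -0.13, -0.35 and -0.18, none of them called. With the mean of its 4 probe sets ULK2 fell by 0.52 in FG (adjusted p = 0.0174). ATG13, the adaptor that binds the kinase, changed by 0.01 and 0.02 with levels of 7.82 to 8.26. RB1CC1, the scaffold of the complex also called FIP200, was at -0.37 in FG and 0.02 in L3.6pl, and its second probe set at -1.09 (adjusted p = 0.0865) and -0.43, none of them called. In the lipid kinase complex no gene was called in hypoxia in either line. BECN1, its regulatory subunit, was at -0.45 in FG (adjusted p = 0.0954) and -0.15 in L3.6pl. PIK3C3, the catalytic subunit, was at -0.46 and 0.36, and ATG14, which directs the complex to autophagy, at 0.20 and 0.11. BECN1 became a called fall in both lines without L3.6pl hypoxia replicate 3, at an unchanged -0.45 in FG (adjusted p = 0.00611) and -0.36 in L3.6pl (adjusted p = 0.0353).

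Genes of membrane supply held the strongest response of the set. VMP1 encodes a membrane protein of the endoplasmic reticulum that is required for autophagosome formation and is known as a gene induced in pancreatitis. In FG it measured 7.37, 7.89 and 7.57 in normoxia and 10.55, 10.46 and 10.39 in hypoxia. The hypoxic arrays lay close together and far above the normoxic ones. VMP1 rose in FG by 2.86 ± 0.45 (7.25-fold, adjusted p = 0.00297). In L3.6pl it measured 6.97, 7.45 and 7.44 in normoxia and 9.69, 9.17 and 7.42 in hypoxia, where replicates 1 and 2 were high and replicate 3 lay within the normoxic range. The L3.6pl difference was 1.48 ± 0.45 and was not called (adjusted p = 0.0775), and without replicate 3 it was 2.14 (adjusted p = 0.000334). VMP1 has 1 probe set of its own.

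The other genes of this step did not pass in hypoxia. ATG9A, a membrane protein of the vesicles that seed the new membrane, was at 0.44 in FG and 0.30 in L3.6pl. ATG2A, a lipid transfer protein, was at -0.34 and 0.03. WIPI1, which binds the lipid product of the PIK3C3 complex, was at -0.54 and -0.21, and WIPI2, which recruits ATG16L1, at 0.05 and 0.06. ATG9A passed in FG when the 3 arrays that stand apart were left out, at 0.64 (adjusted p = 0.00282).

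The ligation system that couples ATG8 proteins to lipid showed a rise of ATG12, the ubiquitin-like protein that is joined to ATG5. ATG12 in FG was at 8.37, 8.62 and 8.62 in normoxia and 9.54, 9.63 and 9.68 in hypoxia. No normoxic array came near a hypoxic one. ATG12 rose by 1.08 ± 0.11 in FG (2.11-fold, adjusted p = 0.000254). In L3.6pl it was at 8.28, 8.31 and 8.29 in normoxia and 8.87, 8.96 and 8.64 in hypoxia, with no overlap and the lowest hypoxic value in replicate 3. The rise in L3.6pl was 0.53 ± 0.11 (adjusted p = 0.0142). Of its 3 probe sets, a second, tested singly with limma, gave 1.53 in FG (adjusted p = 0.00646) and 0.62 in L3.6pl, where it was not called (adjusted p = 0.2383). The third, a dim one with a mean level of 5.29, gave -0.32 and -0.36, neither of them called. The L3.6pl call was lost without L3.6pl hypoxia replicate 1 or 2 or L3.6pl normoxia replicate 2 or 3 (adjusted p 0.0505 to 0.0658), and averaged over its 3 probe sets the L3.6pl change was 0.27 (adjusted p = 0.211).

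No partner of ATG12 was called in hypoxia. ATG5 was at -0.32 in FG and 0.26 in L3.6pl, and ATG16L1, which completes the complex, at -0.26 and 0.12. ATG7, the E1-like activating enzyme, was at -0.09 and 0.16, and ATG3, the E2-like enzyme, at -0.39 and -0.43. The proteases that trim ATG8 proteins differed in sign, with ATG4B at 0.09 and 0.20 and ATG4A at -0.82 in FG (adjusted p = 0.0939) and -0.67 in L3.6pl (adjusted p = 0.1962). None of these was called. ATG4A was at 7.72, 7.81 and 8.35 in FG normoxia and 7.02, 7.19 and 7.22 in FG hypoxia, which did not overlap. Without L3.6pl hypoxia replicate 3 it passed in both lines, at an unchanged -0.82 in FG (adjusted p = 0.00941) and -1.04 in L3.6pl (adjusted p = 0.00628). ATG3 passed in FG without FG normoxia replicate 1, at -0.53 (adjusted p = 0.0403).

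Of the 5 genes called in hypoxia, VMP1 and ATG12 held ACGTG in their promoter window. ACGTG is a form of the core of the hypoxia response element that hypoxia-inducible factors are known to bind. Other forms of the core, such as GCGTG, were not searched or marked. Windows of 300 bases, from 250 before to 50 after the start, were matched for 31 of the 35 genes in RefSeq's GRCh38.p14 table. RB1CC1, LAMP2, CTSB and HEXA were not matched. ACGTG, on either strand, stood in 10 of 24 autophagy genes, 5 of 7 lysosome genes and 2 of the 5 genes called in FG hypoxia. It stood in 21.4% of the 35116 windows in the table. A gene with several windows counts if any of them matched, so counts of genes and the share of windows are unlike measures. Genes not called in hypoxia also held it: ATG13, ATG14, ATG9A, WIPI2, ATG3, ATG4A, ATG5, GABARAPL2, LAMP1, MCOLN1, CTSA, CTSD and GLA. Of these, WIPI2, ATG5 and LAMP1 were called between the lines. The 250 bases before the start are printed for VMP1 (chr17:59707404-59707653, plus strand) and ATG12 (chr5:115841566-115841815, minus strand) because these genes carried a called rise, with the motif in capitals as ACGTG or, on the other strand, CACGT. A match describes the letters of the window and is not a binding site measured here.
VMP1: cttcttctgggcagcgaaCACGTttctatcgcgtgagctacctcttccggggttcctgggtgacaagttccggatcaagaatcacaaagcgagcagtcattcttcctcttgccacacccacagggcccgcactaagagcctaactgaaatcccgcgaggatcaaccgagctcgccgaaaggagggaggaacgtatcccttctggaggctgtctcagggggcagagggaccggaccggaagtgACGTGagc
ATG12: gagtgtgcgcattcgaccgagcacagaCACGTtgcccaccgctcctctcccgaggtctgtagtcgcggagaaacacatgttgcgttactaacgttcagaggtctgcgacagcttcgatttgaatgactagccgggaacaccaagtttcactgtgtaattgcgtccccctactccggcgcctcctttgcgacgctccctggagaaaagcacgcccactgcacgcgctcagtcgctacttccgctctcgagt
Counted from the start, VMP1 held the motif at positions -232 and -8 and ATG12 at -223. The windows of ULK1, MAP1LC3B and GABARAPL1 did not hold ACGTG on either strand, which does not show that they lack the element.

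ATG8 proteins divided by member. MAP1LC3B, the LC3 protein used as the standard marker of autophagosomes, was at 8.63, 8.45 and 8.67 in FG normoxia and 9.43, 9.55 and 9.50 in FG hypoxia. The groups were narrow and well apart. It rose in FG by 0.91 ± 0.14 (1.88-fold, adjusted p = 0.00269). In L3.6pl it was at 8.47, 8.55 and 8.67 in normoxia and 9.21, 9.42 and 8.82 in hypoxia, where replicate 3 lay just above the highest normoxic array. The rise in L3.6pl was 0.59 ± 0.14 (1.50-fold, adjusted p = 0.0299). A second MAP1LC3B probe set of similar brightness gave 0.07 in FG and 0.28 in L3.6pl, and with the mean of both the gene was not called in FG (0.49, adjusted p = 0.0597) or L3.6pl (0.43, adjusted p = 0.1115). The L3.6pl call was also lost without L3.6pl hypoxia replicate 1 or 2 or any L3.6pl normoxia array (adjusted p 0.0603 to 0.1114).

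GABARAPL1, a GABARAP-like ATG8 protein, rose in both lines by its brightest probe set, and both of its probe sets were positive in each line. It was at 6.53, 6.91 and 7.11 in FG normoxia and 7.94, 8.13 and 8.21 in FG hypoxia. Every hypoxic array was above every normoxic array. The rise in FG was 1.24 ± 0.15 (2.37-fold, adjusted p = 0.000678). In L3.6pl the levels were 6.35, 6.05 and 6.36 in normoxia and 6.95, 6.88 and 6.86 in hypoxia. Here too the groups did not overlap, and replicate 3 lay with replicates 1 and 2. The rise in L3.6pl was 0.64 ± 0.15 (1.56-fold, adjusted p = 0.0261). Its other probe set, tested singly with limma, gave 0.95 in FG (adjusted p = 0.0164) and 0.69 in L3.6pl, where it was not called (adjusted p = 0.086). The L3.6pl call was lost without L3.6pl hypoxia replicate 1 or 2 or L3.6pl normoxia replicate 2 or 3 (adjusted p 0.0561 to 0.1196).

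The remaining ATG8 genes were not called in hypoxia, and the probe sets of the cargo receptor SQSTM1 disagreed. GABARAP was at -0.26 in FG and 0.10 in L3.6pl, with levels of 10.81 to 11.74, and GABARAPL2 at 0.29 and -0.10, with levels of 10.59 to 11.30. SQSTM1, the p62 receptor that links ubiquitinated cargo to LC3, was at -0.43 in FG and -0.22 in L3.6pl by its brightest probe set, neither of them called. Another of its 5 probe sets, with a mean level of 8.57, rose in both lines when probe sets were tested singly with limma, by 1.63 in FG (adjusted p = 0.00845) and 1.21 in L3.6pl (adjusted p = 0.0473). The other 3 lay between -0.25 and 0.02 in FG and between -0.11 and 0.11 in L3.6pl. NBR1, a related receptor, was at -0.43 and 0.11. By its brightest probe set SQSTM1 spread widely within groups, from 9.58 to 10.66 in FG normoxia and from 10.24 to 11.21 in L3.6pl normoxia.

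**Figure D3:**
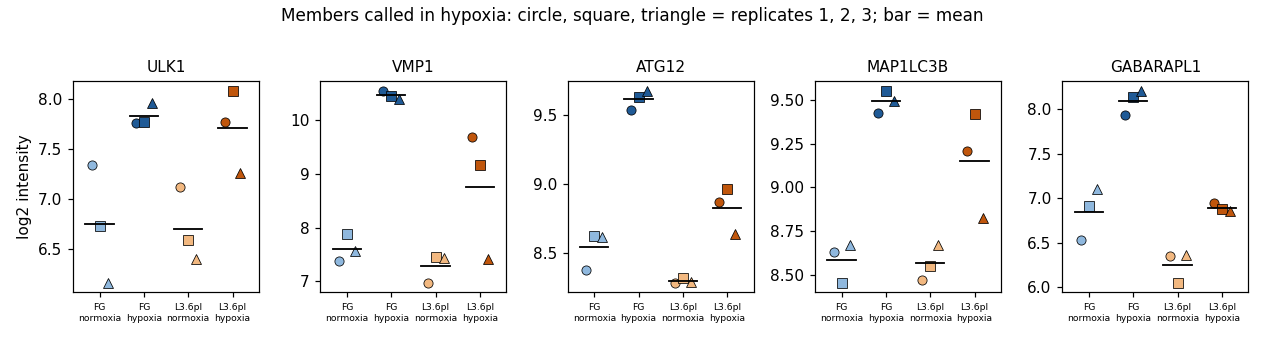
Log2 intensity of the 5 genes that rose in FG hypoxia, for each array of the 4 groups, with a bar at the mean of 3 arrays. Each gene's FG hypoxia arrays lie above all its FG normoxia arrays, and in L3.6pl hypoxia replicate 3 (triangle) is the lowest of its group for all 5.

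The lysosome genes had no called change in hypoxia in either line. In FG 8 of the 10 were below 0 and in L3.6pl 5, beside 10864 and 10762 of the 19775 genes. Their changes were -0.57 to 0.17 in FG and -1.10 to 0.50 in L3.6pl. TFEB was at 0.17 in FG and 0.50 in L3.6pl. Among membrane proteins, LAMP1 was at -0.15 and -0.05, LAMP2 at 0.07 and 0.36, and the calcium channel MCOLN1 at -0.25 and -0.19. Among proteases, CTSB was at -0.07 and 0.44, CTSD at -0.05 and 0.33, CTSL at -0.48 and -0.64, and the serine carboxypeptidase CTSA at -0.57 (adjusted p = 0.0736) and -0.28. Of the glycosidases, HEXA, a subunit of beta-hexosaminidase, was at -0.22 and 0.14.

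Some lysosome genes passed once arrays that stand apart were left out. Without L3.6pl hypoxia replicate 3 alone, CTSA passed in FG, at an unchanged -0.57 (adjusted p = 0.0224), and CTSL in L3.6pl, at -0.85 (adjusted p = 0.0398). GLA, the alpha-galactosidase lost in Fabry disease, was at 8.34, 10.04 and 10.24 in FG normoxia and 9.15, 8.72 and 9.11 in FG hypoxia. In L3.6pl it was at 8.73, 9.74 and 9.85 in normoxia and 8.39, 7.73 and 8.91 in hypoxia. Replicate 1 was low in both normoxic groups, so the groups overlapped, and the changes were -0.55 ± 0.49 and -1.10 ± 0.49. Without the 3 arrays that stand apart GLA fell in both lines, at -1.14 in FG (adjusted p = 0.00444) and -1.74 in L3.6pl (adjusted p = 0.00102). CTSA also passed in that fit, at -0.44 in FG (adjusted p = 0.0127) and -0.35 in L3.6pl (adjusted p = 0.0464). CTSL passed there in L3.6pl, at -0.90 (adjusted p = 0.0412), and was not called in FG (-0.48, adjusted p = 0.2296). In the same fit ULK1 and VMP1 passed in L3.6pl, at 1.43 (adjusted p = 0.00129) and 1.99 (adjusted p = 0.000208). In all, 11 of the 35 genes were called in FG and 10 in L3.6pl, beside 19.6% and 21.1% of all genes. Lysosome calls were 2 of 10 in FG and 3 of 10 in L3.6pl, beside the same shares. That fit left fewer than 3 arrays in both normoxic groups and in L3.6pl hypoxia.

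**Figure D4:**
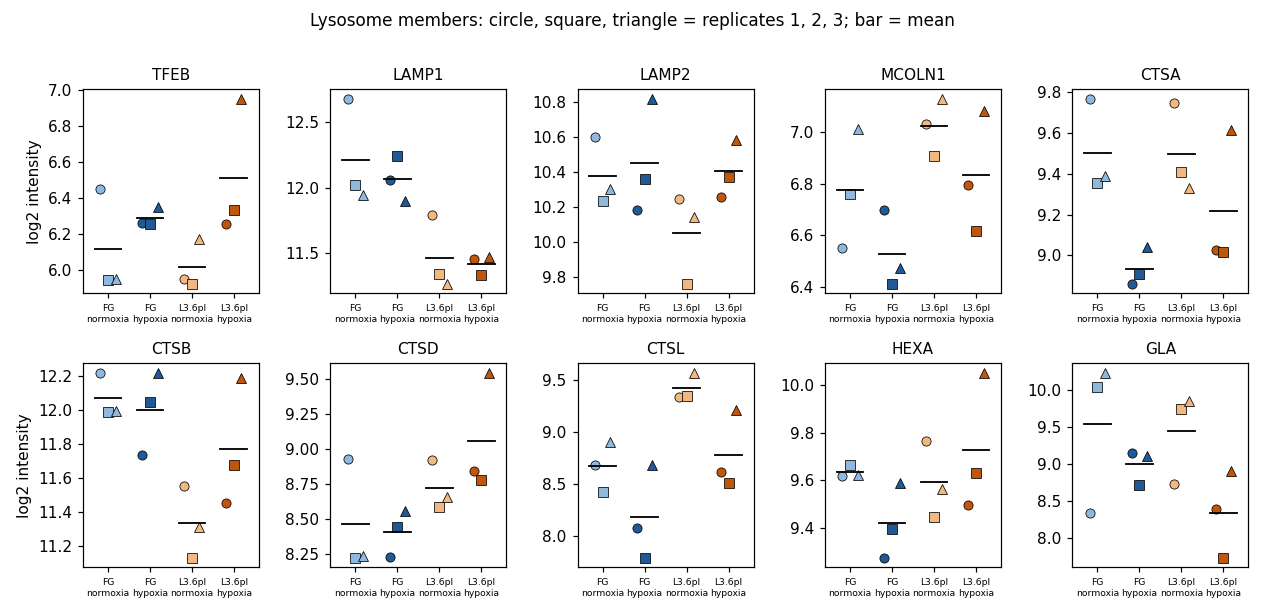
Log2 intensity of the 10 lysosome genes in each array of the 4 groups, with a bar at the mean of 3 arrays. The triangle of L3.6pl hypoxia, replicate 3, is the highest of its group in all 10 panels, and the circles of both normoxic groups, replicate 1, are the lowest of theirs for GLA.

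Lysosome genes are known for an element around CACGTG, the E-box core that TFEB binds, and this motif was frequent in their windows. It stood in 4 of 7 lysosome genes (LAMP1, MCOLN1, CTSA and CTSD) and in 2 of 24 autophagy genes (ATG14 and ATG3), counting any window of a gene. Of the 35116 windows, 7.26% held it. The longer TCACGTG stood in the windows of the same 6 genes, beside 3.71% of windows. Each CACGTG also contains ACGTG, so matches to these motifs are not separate. LAMP1 held CACGTG at 6 places, of which 5 lie wholly before the start and are printed. The last 200 bases before the start for LAMP1 and the last 60 for the others are shown because they hold the motif, which is in capitals. They are LAMP1 (chr13:113297039-113297238, plus strand), MCOLN1 (chr19:7522564-7522623, plus strand), CTSA (chr20:45891275-45891334, plus strand) and CTSD (chr11:1763928-1763987, minus strand).
LAMP1: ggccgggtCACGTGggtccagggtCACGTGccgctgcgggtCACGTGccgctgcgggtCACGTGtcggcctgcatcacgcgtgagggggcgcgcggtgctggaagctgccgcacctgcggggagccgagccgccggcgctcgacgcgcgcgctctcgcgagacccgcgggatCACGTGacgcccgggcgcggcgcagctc
MCOLN1: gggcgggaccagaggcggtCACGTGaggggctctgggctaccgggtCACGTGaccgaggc
CTSA: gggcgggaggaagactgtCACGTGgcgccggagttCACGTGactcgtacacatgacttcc
CTSD: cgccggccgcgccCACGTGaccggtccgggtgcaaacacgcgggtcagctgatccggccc
The 4 genes were not called in hypoxia in either line, with changes of -0.57 to -0.05 in FG and -0.28 to 0.33 in L3.6pl. Only 4.24% of all genes were called higher in FG and 3.89% in L3.6pl, so 4 genes without a called rise are too few to read. TFEB's own transcript was not called either, the location of its protein was not measured, and a response of these genes to TFEB was not tested.

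The next comparison set L3.6pl against FG in normoxia. Called differences lay on both sides, with WIPI2 and ATG16L1 higher in L3.6pl and ATG5, GABARAPL1, LAMP1 and CTSB lower. These were 4 of 25 autophagy genes and 2 of 10 lysosome genes, against 10.7% of all genes called, 5.16% higher and 5.54% lower. The median difference was -0.02 over autophagy genes and -0.07 over lysosome genes, beside 0.02 over all genes. Without FG normoxia replicate 2 or L3.6pl normoxia replicate 2 or 3, 2 autophagy genes and no lysosome gene were called. Calls over all genes moved too, from 1254 to 2626 over the fits that left out 1 array. Of the 2 lysosome calls, 0 were left without FG normoxia replicate 1, 1 was left without FG normoxia replicate 3, FG hypoxia replicate 1 or 2 or L3.6pl hypoxia replicate 1, and CTSL joined them without replicate 3 of either hypoxic group. RB1CC1 passed without FG hypoxia replicate 1 (adjusted p = 0.0456). Same-numbered arrays of the lines deviated together within an oxygen condition, and a fit with that pairing as a block called 8 autophagy and 4 lysosome genes, which included the 6 above, beside 23.1% of all genes. It added ATG3 at 0.37 (adjusted p = 0.0127), NBR1 at 0.33 (adjusted p = 0.0229) and SQSTM1 at 0.67 (adjusted p = 0.0322), higher in L3.6pl. It also added RB1CC1 at -0.59 (adjusted p = 0.0126), CTSL at 0.75 (adjusted p = 0.00085) and LAMP2 at -0.33 (adjusted p = 0.0472).

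In hypoxia, 9 of the 35 genes were called between L3.6pl and FG, against 6 in normoxia. Calls over all genes rose too, from 10.7% to 16.7%, and lysosome calls went from 2 to 1. WIPI2, ATG16L1, BECN1, NBR1 and ATG4B were higher in L3.6pl, and VMP1, GABARAPL1, ATG12 and LAMP1 were lower. That made 8 of 25 autophagy genes and 1 of 10 lysosome genes, against 16.7% of all genes called, 10.0% higher and 6.72% lower. The median difference was 0.15 over autophagy genes and 0.25 over lysosome genes, beside 0.02 over all genes. Without FG hypoxia replicate 2 there were 5 autophagy calls, and calls over all genes ranged from 2142 to 3813 over the fits that left out 1 array. PIK3C3 passed without FG hypoxia replicate 3, at 1.26, or L3.6pl hypoxia replicate 1, MAP1LC3B without L3.6pl hypoxia replicate 2, at -0.48, and CTSL without FG hypoxia replicate 3, at 0.84. SQSTM1 and CTSD passed without FG normoxia replicate 1, and ATG2A without it or FG hypoxia replicate 1. With the paired block 13 autophagy and 4 lysosome genes were called, the 9 above among them, beside 5935 of the 19775 genes. It added PIK3C3 at 1.00 (adjusted p = 0.000679), SQSTM1 at 0.87 (adjusted p = 0.00743), CTSD at 0.64 (adjusted p = 0.00807), CTSL at 0.59 (adjusted p = 0.00177), ATG2A at 0.47 (adjusted p = 0.014) and ATG3 at 0.34 (adjusted p = 0.0147). Lower in L3.6pl in that fit were ATG5 at -0.58 (adjusted p = 0.00285) and GLA at -0.66 (adjusted p = 0.0276). The comparisons of a line with its own control and with the other line share arrays, so each is given by its own values.

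**Figure D5:**
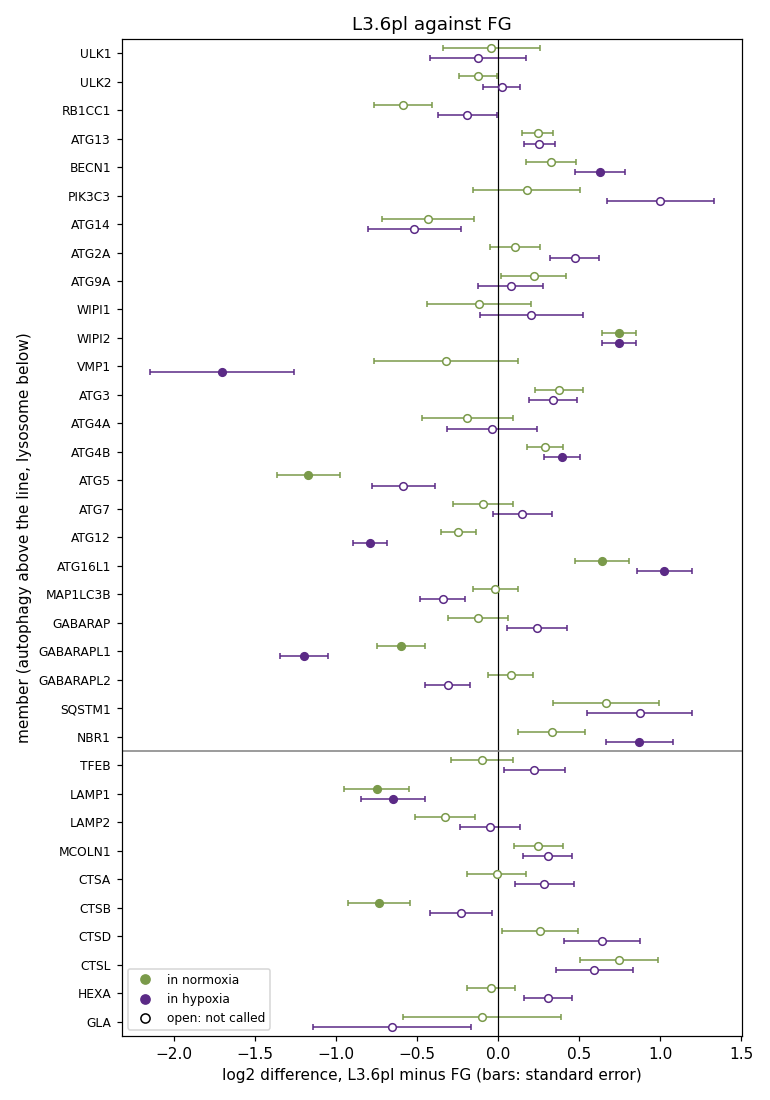
Log2 difference of L3.6pl minus FG for each gene (x axis), in normoxia (green) and in hypoxia (purple), with bars of 1 standard error and filled points for called differences. WIPI2, ATG16L1, GABARAPL1 and LAMP1 have filled points in both colours, on the same side of 0.

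WIPI2, ATG16L1, GABARAPL1 and LAMP1 were called between the lines in both oxygen conditions. WIPI2 was at 9.15, 9.05 and 9.14 in FG normoxia and 9.75, 9.90 and 9.92 in L3.6pl normoxia. Its levels in hypoxia were 9.23, 9.15 and 9.12 in FG and 9.75, 9.86 and 10.13 in L3.6pl. All 6 L3.6pl arrays were above all 6 FG arrays. WIPI2 was higher in L3.6pl by 0.74 ± 0.11 in normoxia (1.68-fold, adjusted p = 0.00113) and by 0.75 ± 0.11 in hypoxia (adjusted p = 0.000725). A second of its 5 probe sets also passed in both conditions, and the rest did not.

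ATG16L1 was higher in L3.6pl, while its complex partner ATG5 was lower. ATG16L1 measured 6.45, 6.30 and 6.78 in FG normoxia and 7.07, 7.06 and 7.33 in L3.6pl normoxia, and 6.18, 6.11 and 6.45 in FG hypoxia and 7.05, 7.20 and 7.57 in L3.6pl hypoxia. No FG array reached an L3.6pl array. The difference was 0.64 ± 0.17 in normoxia (adjusted p = 0.0327) and 1.03 ± 0.17 in hypoxia (2.04-fold, adjusted p = 0.00181). The normoxia call of ATG16L1 was lost without FG normoxia replicate 1 or 2 or any L3.6pl normoxia array (adjusted p 0.0615 to 0.1274), and it stood at 0.00158 with the paired block. With the mean of its probe sets ATG16L1 was called in neither condition, at 0.66 (adjusted p = 0.0599) and 0.61 (adjusted p = 0.0576).

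ATG5 was at 10.11, 10.37 and 10.49 in FG normoxia and 8.87, 9.04 and 9.54 in L3.6pl normoxia. FG lay above L3.6pl in every array. ATG5 was lower in L3.6pl by 2.25-fold (-1.17 ± 0.19, adjusted p = 0.00305), with all 3 of its probe sets negative and called. In hypoxia the levels were 9.89, 9.92 and 10.19 in FG and 9.19, 9.32 and 9.73 in L3.6pl, again apart, and the difference of -0.58 ± 0.19 was not called (adjusted p = 0.0659). Of its other 2 probe sets, tested singly, 1 was lower in L3.6pl in hypoxia, at -0.78 (adjusted p = 0.0151), and 1 was at -0.57 and not called (adjusted p = 0.4786). By the first probe set the difference passed in hypoxia without L3.6pl hypoxia replicate 3, at -0.74, and without L3.6pl normoxia replicate 3.

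GABARAPL1 was lower in L3.6pl than in FG in both conditions, in both of its probe sets. Its levels, given above, did not overlap between the lines in either condition. The difference was -0.60 ± 0.15 in normoxia (1.51-fold, adjusted p = 0.0255) and -1.20 ± 0.15 in hypoxia (2.30-fold, adjusted p = 0.000319). The normoxia call was lost without FG normoxia replicate 2 or 3 or L3.6pl normoxia replicate 2 or 3 (adjusted p 0.0505 to 0.1096), and the hypoxia call held in all 12 fits that left out 1 array.

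ATG12 and VMP1 differed between the lines in hypoxia. ATG12 was at -0.24 ± 0.11 in normoxia (adjusted p = 0.2009) and -0.79 ± 0.11 in hypoxia (1.73-fold lower in L3.6pl, adjusted p = 0.000543). VMP1 was at -0.32 ± 0.45 in normoxia and -1.70 ± 0.45 in hypoxia (3.26-fold lower, adjusted p = 0.0239). Every hypoxic FG array of either gene was above every hypoxic L3.6pl array. Without L3.6pl hypoxia replicate 3 the VMP1 difference in hypoxia was -1.03, and without any 1 of the 3 FG hypoxia arrays its call was lost (adjusted p 0.0533 to 0.0746). MAP1LC3B was at -0.02 in normoxia and -0.34 in hypoxia, and ULK1 at -0.04 and -0.12, none of them called.

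BECN1, NBR1 and ATG4B were called higher in L3.6pl in hypoxia. BECN1 was at 8.99, 8.84 and 9.06 in FG hypoxia and 9.39, 9.38 and 10.02 in L3.6pl hypoxia, with replicate 3 the highest. Its difference was 0.63 ± 0.15 (1.55-fold, adjusted p = 0.0175) in hypoxia and 0.33 ± 0.15 in normoxia, where it was at 9.35, 9.43 and 9.46 in FG and 9.75, 9.67 and 9.80 in L3.6pl (adjusted p = 0.2484). The hypoxia call of BECN1 was lost without FG hypoxia replicate 2 (adjusted p = 0.0724), and without L3.6pl hypoxia replicate 3 the difference was 0.42. Without that array the normoxia difference of BECN1 passed (adjusted p = 0.0299).

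NBR1 was at 9.01, 9.30 and 9.58 in FG hypoxia and 9.86, 10.19 and 10.46 in L3.6pl hypoxia. Each L3.6pl array lay above each FG array. The difference was 0.87 ± 0.21 (1.83-fold, adjusted p = 0.0149), and it was lost without FG hypoxia replicate 1 (adjusted p = 0.0636). In normoxia NBR1 was at 9.99, 9.50 and 9.69 in FG and 10.37, 9.92 and 9.89 in L3.6pl, which overlapped. Its other 3 probe sets gave 0.53, 0.02 and 0.01 in hypoxia, none of them called, and with the mean of all 4 the difference was 0.36 (adjusted p = 0.4081). SQSTM1 was at 0.67 in normoxia and 0.87 in hypoxia (adjusted p = 0.0978) by its brightest probe set, and a second one, tested singly, was higher in L3.6pl in hypoxia by 1.02 (adjusted p = 0.0144). Its remaining 3 probe sets were at 0.0038 to 0.12 in hypoxia.

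ATG4B was at 8.79, 8.65 and 8.60 in FG hypoxia and 9.02, 9.00 and 9.20 in L3.6pl hypoxia, without overlap. The difference was 0.39 ± 0.11 (1.31-fold, adjusted p = 0.0321). In normoxia ATG4B was at 8.53, 8.50 and 8.72 in FG and 8.73, 9.03 and 8.85 in L3.6pl, 0.29 apart (adjusted p = 0.1382), although 1 of its other 2 probe sets passed there when tested singly, at 0.37 (adjusted p = 0.035). The hypoxia call was lost without FG hypoxia replicate 2 or 3 or any L3.6pl hypoxia array (adjusted p 0.0523 to 0.0985).

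Among lysosome genes, LAMP1 and CTSB were lower in L3.6pl. LAMP1, a main glycoprotein of the lysosome's membrane, was at 12.68, 12.02 and 11.94 in FG normoxia and 11.79, 11.34 and 11.26 in L3.6pl normoxia. In hypoxia it was at 12.06, 12.24 and 11.90 in FG and 11.45, 11.33 and 11.47 in L3.6pl. All 6 FG arrays were above all 6 L3.6pl arrays. The difference was -0.75 ± 0.20 in normoxia (1.68-fold, adjusted p = 0.0355) and -0.65 ± 0.20 in hypoxia (1.57-fold, adjusted p = 0.0473), and all 4 of its probe sets were negative in both. Leaving out 1 array ended the LAMP1 call in hypoxia for 9 of the 12 arrays, all but FG normoxia replicates 1 and 3 and L3.6pl normoxia replicate 1 (adjusted p 0.0558 to 0.1612). In normoxia the call ended without FG normoxia replicate 1 or 2, L3.6pl normoxia replicate 2 or 3, or hypoxia replicate 1 of either line (adjusted p 0.0517 to 0.1328).

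CTSB, the cysteine protease cathepsin B, was at 12.22, 11.99 and 11.99 in FG normoxia and 11.56, 11.13 and 11.31 in L3.6pl normoxia. The lines did not overlap. CTSB was lower in L3.6pl by 1.66-fold (-0.73 ± 0.19, adjusted p = 0.0348), in all 5 of its probe sets. In hypoxia it was at 11.74, 12.04 and 12.22 in FG and 11.45, 11.68 and 12.19 in L3.6pl, which overlapped through replicate 3, and the difference was -0.23 ± 0.19 (adjusted p = 0.5122). This was the smallest hypoxic difference of the 5 probe sets, which were all negative down to -0.90, and 1 of them passed when tested singly, at -0.86 (adjusted p = 0.0101). With the mean of the 5 CTSB was called lower in L3.6pl in hypoxia, at -0.56 (adjusted p = 0.0452). The normoxia call was lost without any FG normoxia array, FG hypoxia replicate 2 or L3.6pl normoxia replicate 2 or 3 (adjusted p 0.0539 to 0.1385). CTSL was at 0.75 in normoxia (adjusted p = 0.0778) and CTSD at 0.64 in hypoxia (adjusted p = 0.09). TFEB, LAMP2, MCOLN1, CTSA, HEXA and GLA lay between -0.33 and 0.25 in normoxia and between -0.66 and 0.31 in hypoxia, none called.

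The last comparison tested whether the response to hypoxia differed between the lines, as the change in L3.6pl minus that in FG. No gene of the 35 was called, against 0.0253% of all genes (5 genes) by limma. At an unadjusted p below 0.05 there were 2 of the 35 and 1427 of all genes. The median was 0.15 over autophagy genes and 0.29 over lysosome genes, beside 0.01 over all genes. ATG12 was at -0.55 ± 0.15 (adjusted p = 0.325), GABARAPL1 at -0.60 ± 0.21 (adjusted p = 0.4963) and VMP1 at -1.38 ± 0.63 (adjusted p = 0.6924), none of them called. Without L3.6pl hypoxia replicate 3 the VMP1 value was -0.71 (adjusted p = 0.566). ULK1 was at -0.08 ± 0.42 and MAP1LC3B at -0.32 ± 0.20. With the paired block NBR1 was called, at 0.54 (adjusted p = 0.0494), and limma called no other gene of the 35, beside 3.55% of all genes called in that fit.

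Further genes of the same systems were read from 4 other lists. Of 31 more autophagy genes, 3 rose and 2 fell in FG hypoxia and 3 rose and 1 fell in L3.6pl. Over all genes 4.24% rose and 6.47% fell in FG and 3.89% rose and 2.97% fell in L3.6pl. WDR45B, a relative of the WIPI proteins, rose by 1.32 in FG (adjusted p = 0.00445) and 1.18 in L3.6pl (adjusted p = 0.0111). ATG2B, a lipid transfer protein like ATG2A, fell by 1.90 (adjusted p = 0.00153) and 1.07 (adjusted p = 0.0344). PIK3R4, the regulatory kinase-like subunit of the PIK3C3 complex, fell by 1.00 in FG, and the receptor TAX1BP1 rose by 0.40. Of the 3 PIK3R4 probe sets 2 were negative, 1 of them called when tested singly. TOLLIP and PLEKHM1, an adaptor of lysosome fusion, rose in L3.6pl by 0.48 and 0.69, although only 2 of 4 TOLLIP probe sets were positive. The medians were -0.0044 in FG and 0.0068 in L3.6pl.

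Of 39 more lysosome genes measured, called changes in hypoxia were all falls, 6 in FG, beside 6.47% of all genes, and 2 in L3.6pl, beside 2.97%. LIPA, the acid lipase, fell by 0.90 in FG (adjusted p = 0.0178) and 1.01 in L3.6pl (adjusted p = 0.0144). In FG the fucosidase FUCA1 fell by 1.61, the cystine transporter CTNS by 0.90 (2 of 3 probe sets negative) and the glucosaminidase NAGLU by 0.85 (1 of 2 negative). The acid ceramidase ASAH1 fell by 1.13 in L3.6pl, and all 5 of its probe sets were negative, 3 of them called when tested singly. The median was -0.29 in FG and -0.04 in L3.6pl.

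Of 15 measured subunits of the proton pump that acidifies lysosomes, 1 rose and 3 fell in FG hypoxia and 2 fell in L3.6pl, where 10.7% and 6.86% of all genes were called in either direction. ATP6V1A, its catalytic subunit, fell by 0.63 in FG (adjusted p = 0.00498) and 0.42 in L3.6pl (adjusted p = 0.0435). ATP6V1B2 fell by 1.38 (adjusted p = 0.000788) and ATP6V0A1 by 0.75 in FG, where ATP6V1G1 rose by 0.49, and ATP6V0A2 fell by 0.79 in L3.6pl. ATP6V1F was not analysed here. Of 27 measured regulators around mTOR, AMPK and TFEB, 5 rose and 2 fell in FG and 3 rose and 1 fell in L3.6pl, against the same shares of all genes. DDIT4, a stress-induced inhibitor of mTORC1, rose by 1.02 (adjusted p = 0.00477) and the AMPK catalytic subunit PRKAA1 by 1.24 (adjusted p = 0.0173) in FG. Of the 5 PRKAA1 probe sets 3 were positive, 1 of them called when tested singly, and the lowest was at -0.83. LAMTOR3, part of the Ragulator scaffold, rose by 0.56 in FG in 1 of 2 probe sets, and the other was at -1.19. AKT1S1, an inhibitory subunit of mTORC1, fell by 0.99 in FG (adjusted p = 0.00461) and by 0.63 in L3.6pl (adjusted p = 0.0496). TFE3, a relative of TFEB, rose by 0.66 in L3.6pl (adjusted p = 0.00529), with the Rag GTPases RRAGB and RRAGA at 0.62 and 0.50. LAMTOR1 was not analysed here.

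Between the lines, 10.7% of all genes were called in normoxia and 16.7% in hypoxia, and the lists are read against those shares. In normoxia 2 of the 31 autophagy genes were called higher in L3.6pl and none lower, and in hypoxia 10 were called higher and none lower, beside 5.16% of all genes called higher and 5.54% lower in normoxia and 10.0% and 6.72% in hypoxia. PLEKHM1 was higher by 1.37 (adjusted p = 0.000532) in 1 of 2 probe sets, the other being at -0.44, WDR45 by 1.21, PIK3R4 by 1.02 and the fusion SNARE STX17 by 0.57 in hypoxia. TAX1BP1 and the late endosome GTPase RAB7A were higher in normoxia by 0.52 and 0.53. Of the 39 lysosome genes, 2 were higher and 4 lower in normoxia and 9 higher and 5 lower in hypoxia. The cathepsin CTSH was higher in L3.6pl by 2.40 in normoxia (adjusted p = 0.000138) and 2.80 in hypoxia (adjusted p = 3.63e-05), and the cathepsin CTSS lower, at -1.80 and -1.45. LAPTM4B, a membrane protein of late endosomes and lysosomes, was lower, at -1.16 and -1.31, and GNPTAB, which adds the lysosomal sorting tag, at -0.90 in normoxia. CTSC was at -0.99 in hypoxia, although 2 of its 4 probe sets were not negative.

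Of the 15 pump subunits 2 were called between the lines in each condition, and of the 27 regulators 2 in normoxia and 7 in hypoxia. ATP6V1A was higher in L3.6pl by 0.83 in normoxia (adjusted p = 0.000753) and 1.04 in hypoxia (adjusted p = 0.00013), 1 of 2 called pump genes in each condition. ATP6V1G1 was at 0.37 in normoxia and ATP6V1B2 at 0.63 in hypoxia. Among the regulators 2 were higher in normoxia, and 5 were higher and 2 lower in hypoxia. RRAGD was higher by 1.44 in normoxia (adjusted p = 0.0347) and 1.92 in hypoxia (adjusted p = 0.00567), and RRAGA by 0.49 and 0.72. RRAGB was higher by 0.78 and RHEB, the GTPase that activates mTORC1, lower at -0.82 in hypoxia. No gene of the 4 lists was called in the test of the difference between the lines' responses.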

How the data were processed

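The authors deposited RMA-normalized intensity values, as the submitters' processing notes name the method, and the values are linear. How RMA's log2 output was converted is not stated there. Array medians were 39.1 to 41.4 intensity units, so the log2 of each deposited value was taken with no further normalization. Of 54675 probe sets, 41091 named exactly 1 gene in the platform annotation of 2016, with symbols updated by gene number, and gave 19775 genes. A linear model with 4 group means was fitted to all 12 arrays with limma 3.58.1 in R 4.3.3 (lmFit and eBayes, 8 residual and 2.72 prior degrees of freedom), without a block, and was tested on simulated data. Precision is limited by the small number of arrays, and a brighter probe set does not show a more abundant transcript. Single probe sets were tested in the same model, adjusted over all 41091.

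The 35 genes, the other lists and the tests were chosen with earlier results of these data known. All 35 are described, and those called in any of 5 comparisons are given array by array. Of the other lists, up to 4 called genes per comparison with the smallest adjusted p and no overlap between groups are named. After removing group means, same-numbered arrays of FG and L3.6pl correlated at 0.528 to 0.735 in normoxia and 0.358 to 0.462 in hypoxia. The labels do not say that a number marks a shared culture or batch. Between hypoxia and normoxia of a line, same-numbered arrays correlated at -0.217 to 0.259 in FG and -0.04 to 0.413 in L3.6pl. The paired block was added after these correlations were seen, so the pairing was taken from the same values that the block then tests. Other alternatives were cyclic loess, median centring, array weights, a filter on dim genes, other uses of the probe sets, an intensity trend, a stricter threshold, only the groups compared, a replicate block over all groups, leaving out each array and leaving out 3 arrays. Promoter windows came from RefSeq. Human protein sequences were not used here.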

Additional observations from a re-analysis of the deposited data

Results flagged for a closer look

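NBR1, the cargo receptor, is listed because its response to hypoxia differed between the lines in the fit that pairs same-numbered arrays within each oxygen condition. The change in L3.6pl minus that in FG was 0.54 there (limma, adjusted p = 0.0494, beside 3.55% of all genes called in that fit) and had the same size without the block (adjusted p = 0.7773). NBR1 was at -0.43 in FG hypoxia and 0.11 in L3.6pl hypoxia, neither of them called, and its other 3 probe sets gave differences of 0.22, -0.30 and -0.48. No group had enough arrays for an outlier test.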

How the results depend on the processing

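The called changes and differences of the 35 genes kept their sign under each alternative tried. In FG hypoxia the calls of ATG12, GABARAPL1 and VMP1 held in all 11 alternatives and all 12 fits without 1 array, and the line differences of WIPI2 and ATG5 in normoxia and of WIPI2, GABARAPL1 and ATG12 in hypoxia held in all 12 alternatives and all 12 such fits. Sizes and counts moved. Over the alternatives and the fits without 1 array, the line difference of NBR1 in hypoxia ranged from 0.36 to 1.03. That of WIPI2 in normoxia ranged from 0.35 to 0.82, and the rise of GABARAPL1 in FG hypoxia from 1.08 to 1.37. For FG hypoxia, calls over all genes went from 2117 to 860 at an adjusted p below 0.01, 5729 with array weights and 3871 without the 3 arrays that stand apart. Autophagy calls went from 5 to 10 with weights and 9 without those arrays, and lysosome calls from 0 to 2 in both and to 1 with the replicate block over all groups.

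For L3.6pl hypoxia, all genes went from 1357 to 475 at 0.01, 5192 with weights, 797 with only the 2 groups, 2130 with the replicate block and 4179 without the 3 arrays. Autophagy calls went from 3 to 0 at 0.01, 7 with weights, 5 with dim genes left out, 1 with the mean of probe sets, 1 with only the 2 groups, 5 with the replicate block and 7 without the 3 arrays. Lysosome calls went from 0 to 5 with weights, 1 with the replicate block and 3 without the 3 arrays.

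For the lines in normoxia, all genes went from 2116 to 1025 at 0.01, 6623 with weights and 4576 with the paired block. Autophagy calls went from 4 to 2, 14 and 8 and lysosome calls from 2 to 0, 5 and 4 under the same settings. For the lines in hypoxia, all genes went from 3310 to 1718 at 0.01 and 5935 with the paired block, and autophagy calls from 8 to 4 and 13. Lysosome calls went from 1 to 0 at 0.01, with loess and with probe sets tested singly, to 2 with the mean of probe sets and with the replicate block, to 4 with the paired block and to 3 without the 3 arrays.

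For the difference of responses, all genes went from 5 to 2 at 0.01, 11 with medians centred, 421 with weights, 10 with the trend, 13 with the mean of probe sets, 10 with probe sets singly, 13 with the replicate block, 703 with the paired block and 19 without the 3 arrays. The paired block gave 1 autophagy call against 0, and without the 3 arrays the lysosome median went from 0.29 to 0.0275. The cause of these shifts was not tested. Leaving out 1 array gave 1029 to 2899 genes, and 0 to 1 lysosome calls, for FG hypoxia. It gave 508 to 2436 genes, 0 to 7 autophagy and 0 to 1 lysosome calls for L3.6pl hypoxia. For the lines it gave 1254 to 2626 genes, 2 to 5 autophagy and 0 to 3 lysosome calls in normoxia and 2142 to 3813, 5 to 10 and 0 to 2 in hypoxia, and 2 to 23 genes for the difference of responses.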
